A study of Drosophila melanogaster with 9 samples.

Results

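The genes described here are those whose transcripts were lowered at least 2-fold in *tbrd-2* knockdown testes of *Drosophila melanogaster*. They were chosen by their array values. A probe set, the group of short probes on the array that reports on 1 transcript, was taken where the mean log2 value of the 3 knockdown arrays lay at least 1 below the mean of each control genotype and the highest knockdown value lay below the lowest of the 6 control values. Of 18952 probe sets, 68 met this rule (0.359% of all), against 86 that met the same rule turned upward. Left out of the 68 were the probe sets of 11 genes, among them *tbrd-2* itself, so that 57 probe sets remained. A single gene symbol was given to 51 of them, 2 carried several symbols, and 4 are unnamed here. The 51 stand for 49 genes of the 11982 genes named on the array, because *Tsf1* and *CG9449* each had 2 such probe sets.

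The male germ cells of the fly transcribe most of the genes for sperm formation in primary spermatocytes, before meiosis, and store many of the messages for use in spermatids. The gene *tbrd-2* encodes a testis-specific member of the BET family, proteins that carry bromodomains, many of which bind acetylated histones. The paper reports that the tBRD-2 protein bound histone peptides in vitro with no preference for acetylated ones. In spermatocytes it works beside tMAC, a meiotic arrest complex found in the testis, and beside the tTAFs, testis forms of the factors that associate with the TATA-binding protein. Both switch on the transcription of genes for meiosis and spermatid differentiation. The study asked which transcripts depend on *tbrd-2*.

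Whole testes of 3 genotypes were hybridized to 9 Affymetrix Drosophila Genome 2.0 arrays, 3 for each genotype, and each array had RNA of its own. The *bam*≫*tbrd-2RNAi* males, called knockdown here, carried 2 copies of *bam*-Gal4, on the X chromosome and chromosome 3, and 1 copy of the hairpin transgene *tbrd-2RNAi* on chromosome 3. The *bam*-Gal4 males carried the 2 driver copies without the hairpin, and the undriven *tbrd-2RNAi* males carried 1 copy of the hairpin without the driver. In both controls, but not in the knockdown, the other chromosome 3 was marked with *Sb*. Effects of the knockdown and of this chromosome cannot be told apart in either contrast. All males were 0 to 2 days old, were kept at 30°C and were pooled for each array, from 30 animals by the labels, while the methods give another number. The *bam* promoter is active in late spermatogonia and early spermatocytes, so that the hairpin is made in the germ line and not in the somatic cells of the testis. In RNA of whole testes, fewer cells of a type and less RNA per cell cannot be told apart.

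The deposited values are log2 expression values, and a difference of 1 between them is a 2-fold difference. The array medians lay between 5.86 and 5.96, and Pearson's r across probe sets was between 0.988 and 0.997 for pairs of arrays within a genotype. The targeted gene read 8.06, 7.82 and 8.05 in knockdown testes, against 10.52, 10.52 and 10.73 in *bam*-Gal4 and 10.19, 10.39 and 10.36 in undriven testes. The mean of 15 markers of spermatocytes and spermatids lay between 10.66 and 10.87 on all 9 arrays. Transcripts of other organs of the abdomen varied between arrays of 1 genotype. The mean of 15 genes of the ejaculatory duct and accessory gland lay between 9.84 and 11.62 in knockdown, 8.09 and 11.65 in *bam*-Gal4 and 9.09 and 10.13 in undriven testes. The mean of 8 gut enzyme genes lay between 5.35 and 8.47 in knockdown, 5.88 and 5.91 in *bam*-Gal4 and 5.67 and 7.63 in undriven testes. Limma called none of the genes of either list against both controls, and at an unadjusted p under 0.05 1 of them, *EbpIII* of the duct and gland list, was higher. Knockdown replicate 3 was the highest array of its genotype on both lists, *bam*-Gal4 replicate 2 on the duct and gland list alone, and undriven replicate 3 on the gut list alone. Without these 3 arrays, 66 probe sets met the rule, and 54 of the 57 were among them.

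Most of the decreases lay close to the limit of the rule. The smaller of the decreases against the controls was between 1 and 1.25 for 37 of the 57 probe sets, between 1.25 and 1.5 for 12, between 1.5 and 1.75 for 6 and larger for 2. The median log2-fold change was −1.20 against *bam*-Gal4 (range −2.13 to −1) and −1.26 against the undriven control (range −2.27 to −1.04), while the medians of all probe sets were −0.02 and −0.03. The gap between the highest knockdown value and the lowest control value ran from 0.32 to 1.59, with a median of 0.89. These values chose the probe sets and are given as a description, with no test. In a limma model of all 9 arrays, 56 of the 57 were called lower against both controls (at least 2-fold, with an adjusted p under 0.05), where 0.354% of all probe sets were called lower and 0.454% higher. This count uses the contrast of the rule, and nothing is read from it. The exception was 1 of the probe sets of *Tsf1*, which missed the adjusted p against the undriven control.

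**Figure D1:**
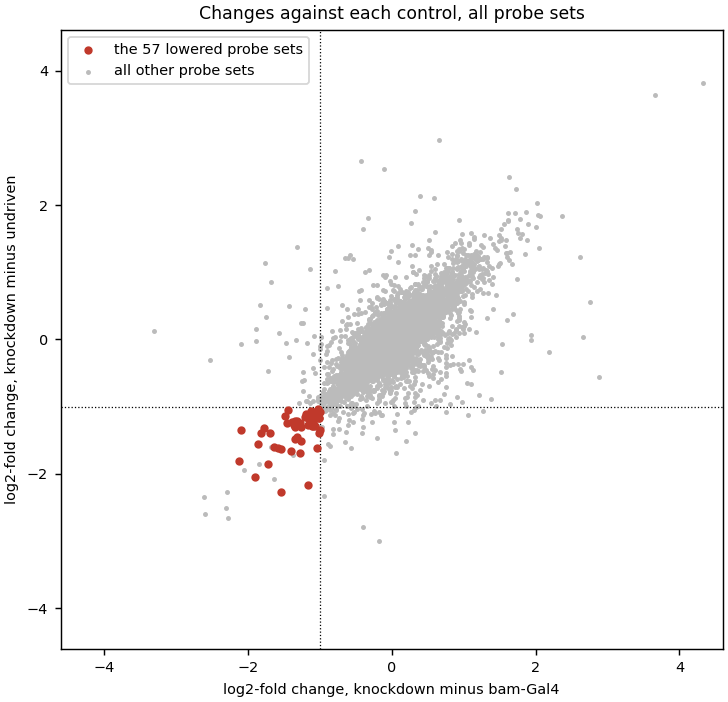
Each point is a probe set, with its log2-fold change of knockdown minus *bam*-Gal4 on the x axis and of knockdown minus undriven on the y axis. The 57 lowered probe sets (red) lie below the dotted lines at −1 by construction, most of them close to the lines, and the grey points beside them belong to the 11 genes left out or to probe sets whose arrays overlapped.

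Ordered by the smaller decrease, the list was led by genes that have only an annotation number. Only such a number is carried by 34 of the 49 genes (69.4%), against 5209 of the 11982 genes on the array (43.5%). All but 2 of the 49 are protein-coding. The exceptions are the long non-coding RNAs *lncRNA:CR33948* and *lncRNA:CR41601*.

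By the smaller of its decreases against the controls, *CG32457* came first among the genes with a symbol. Against *bam*-Gal4 alone *Tsf1* had a larger decrease, and against the undriven control *CG11893* and *CG17177* did. Its log2 value was 9.98, 8.97 and 9.19 in knockdown testes, 11.41, 11.18 and 11.25 in *bam*-Gal4 testes, and 11.20, 11.54 and 11.53 in undriven testes. The knockdown level was 3.73-fold lower than in *bam*-Gal4 and 4.12-fold lower than in the undriven control. Knockdown replicate 1 stood above the other 2 by more than the whole spread of the 6 control arrays, and still lay more than 1 below the lowest of them. In *CG6628* knockdown replicate 1 also stood above the other 2, with 11.06, 10.26 and 10.10 in knockdown testes, against 12.36, 12 and 12.22 in *bam*-Gal4 and 12.23, 12.33 and 12.43 in undriven testes. Its gap to the lowest control array was 0.94. *CG14635* read 7.95, 7.12 and 7.31 in knockdown testes, against 9.17, 8.94 and 9 in *bam*-Gal4 and 9, 9.22 and 9.01 in undriven testes. In all 3 genes, knockdown replicate 1 was the least affected array, and the SD of the knockdown arrays, 0.531, 0.514 and 0.435, was larger than that of either control.

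*CG33233* was lowered evenly. It read 8.98, 8.70 and 8.79 in knockdown testes, against 10.59, 10.26 and 10.51 in *bam*-Gal4 and 10.62, 10.36 and 10.29 in undriven testes. The log2-fold changes were −1.63 and −1.60, with a standard error of 0.12. *CG12645* read 5.23, 4.85 and 4.77 in knockdown testes, against 6.52, 6.25 and 6.68 in *bam*-Gal4 and 6.60, 6.68 and 6.45 in undriven testes. Both genes had nearly the same level in the controls. *CG17648* had 9.29, 8.94 and 9.12 in knockdown testes, against 10.43, 10.42 and 10.46 in *bam*-Gal4 and 10.68, 10.60 and 10.42 in undriven testes, with a gap of 1.13 between the groups.

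*CG16772*, *CG4267* and *CG15152* were lowered with a wide spread. *CG16772* read 7.03, 7.86 and 7.15 in knockdown testes, 10.01, 8.80 and 8.81 in *bam*-Gal4 testes, and 8.58, 8.62 and 9.49 in undriven testes. Here knockdown replicate 2 was the least affected array and 1 array of each control stood well above the other 2. *CG4267* read 5.93, 5.07 and 5.01 in knockdown testes, against 7.09, 7.08 and 7.30 in *bam*-Gal4 and 6.27, 6.88 and 7.02 in undriven testes. Its gap between the groups was 0.34, set by knockdown replicate 1 and undriven replicate 1. *CG15152* read 5.39, 4.91 and 5.71 in knockdown testes, against 6.72, 6.66 and 6.66 in *bam*-Gal4 and 6.57, 6.67 and 7.23 in undriven testes.

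*CG11893* differed in size between the controls. It read 4.98, 4.63 and 4.36 in knockdown testes, 6.16, 6.47 and 5.96 in *bam*-Gal4 testes, and 6.87, 6.94 and 6.98 in undriven testes. The undriven arrays all lay above the *bam*-Gal4 arrays, and the decrease was 2.91-fold against *bam*-Gal4 and 4.83-fold against the undriven control. The log2-fold change between the controls was −0.73 (standard error 0.16, limma, adjusted p = 0.0609), short of a call.

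**Figure D2:**
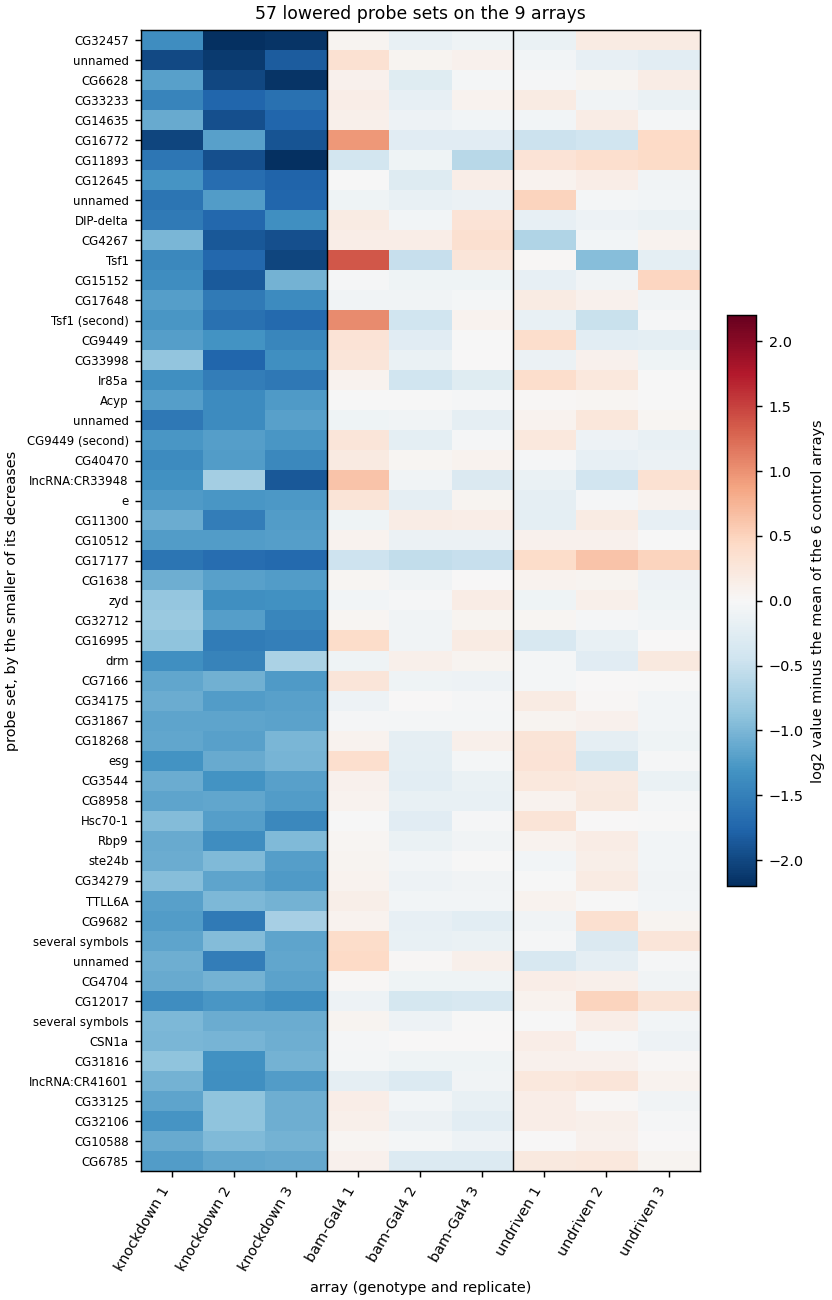
Rows are the 57 lowered probe sets, ordered by the smaller of their decreases, and columns are the 9 arrays. The colour gives the log2 value minus the mean of the 6 control arrays of that probe set. The knockdown columns are blue in every row, as the rule requires, and single arrays stand out in *CG32457* (knockdown replicate 1), *lncRNA:CR33948* (knockdown replicate 2) and *Tsf1* (*bam*-Gal4 replicate 1).

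Among genes with a name, *DIP-delta* and *Tsf1* came first by the smaller decrease, while *Ir85a* had the larger decrease against the undriven control alone. *DIP-delta* encodes an immunoglobulin-domain protein of the cell surface that binds Dpr proteins and is known from the pairing of neurons. It read 6.92, 6.75 and 7.13 in knockdown testes, against 8.66, 8.42 and 8.78 in *bam*-Gal4 and 8.30, 8.36 and 8.32 in undriven testes. The groups were 1.17 apart. *Tsf1* encodes a transferrin, an iron-binding protein of the hemolymph. Its first probe set read 8.64, 8.32 and 8.03 in knockdown testes, 11.41, 9.54 and 10.32 in *bam*-Gal4 testes, and 10.08, 9.12 and 9.83 in undriven testes. Its second probe set read 9.45, 9.09 and 9.02 in knockdown testes, 11.77, 10.29 and 10.81 in *bam*-Gal4 testes, and 10.57, 10.24 and 10.70 in undriven testes. In both, *bam*-Gal4 replicate 1 was far above all other arrays, and the *bam*-Gal4 SD, 0.939 and 0.751, was the widest of all 57 probe sets. The mean of 5 fat body markers, a tissue that makes transferrin, was between 6.68 and 7.04 in knockdown, 6.85 and 7.32 in *bam*-Gal4 and 6.56 and 6.91 in undriven testes, and *bam*-Gal4 replicate 1 was the lowest of its genotype at 6.85. None of the 5 was called, also at an unadjusted p under 0.05, and 2 of the 5 had a mean log2 value under 5. The part of fat body RNA in the values of *Tsf1* was not tested.

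Other proteins of the membrane on the list were *zyd* and *Ir85a*. The *zyd* gene encodes a potassium-dependent sodium/calcium exchanger. It read 5, 4.51 and 4.52 in knockdown testes, against 5.80, 5.83 and 6.02 in *bam*-Gal4 and 5.76, 5.97 and 5.76 in undriven testes. *Ir85a*, of the ionotropic receptor family known from chemosensation, read 5.91, 5.74 and 5.70 in knockdown testes, against 7.35, 6.83 and 7 in *bam*-Gal4 and 7.66, 7.50 and 7.25 in undriven testes. The genotypes were 0.76 apart in *zyd* and 0.92 apart in *Ir85a*, and *Ir85a* was the more lowered against the undriven control.

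The regulators of transcription and RNA were *drm*, *esg* and *Rbp9*. The *drm* gene encodes a zinc-finger protein of the odd-skipped family that acts in patterning and gut development. It read 4.25, 4.13 and 4.90 in knockdown testes, against 5.5, 5.71 and 5.66 in *bam*-Gal4 and 5.55, 5.34 and 5.80 in undriven testes, with a gap of 0.44 set by knockdown replicate 3. *esg* encodes a Snail-family zinc-finger protein that maintains stem cells, those of the testis included. It read 5.4, 5.61 and 5.70 in knockdown testes, against 7.08, 6.51 and 6.67 in *bam*-Gal4 and 7.02, 6.33 and 6.69 in undriven testes. *Rbp9*, an RNA-binding protein of the ELAV family with a known part in germ-cell differentiation in the ovary, read 7, 6.73 and 7.13 in knockdown testes, against 8.14, 7.96 and 8.03 in *bam*-Gal4 and 8.19, 8.26 and 8.05 in undriven testes. The mean of 8 markers of spermatogonia and germline stem cells lay between 7.23 and 7.39 in knockdown, 7.17 and 7.32 in *bam*-Gal4 and 7.20 and 7.21 in undriven testes, and none of the 8 was called by limma (at an unadjusted p under 0.05, 1 was higher). The mean of 7 markers of cyst cells and hub, the somatic cells around the germ line, lay between 6.03 and 6.17 in knockdown, 6.03 and 6.19 in *bam*-Gal4 and 5.92 and 6.13 in undriven testes, with 0 called, also at an unadjusted p under 0.05, and 4 of the 7 at a mean log2 value under 5.

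Enzymes and protein-handling factors formed the other named group. *Acyp*, an acylphosphatase, had one of the most even patterns. It read 10.30, 10.14 and 10.28 in knockdown testes, against 11.51, 11.51 and 11.49 in *bam*-Gal4 and 11.54, 11.56 and 11.51 in undriven testes. The *e* gene (*ebony*) encodes the enzyme that joins beta-alanine to amines such as dopamine, in pigmentation and in the nervous system. It read 5.61, 5.56 and 5.58 in knockdown testes, against 7.14, 6.65 and 6.90 in *bam*-Gal4 and 6.65, 6.83 and 6.92 in undriven testes. *Hsc70-1*, a chaperone of the Hsp70 family, read 9.27, 9.02 and 8.80 in knockdown testes, against 10.22, 9.97 and 10.19 in *bam*-Gal4 and 10.51, 10.23 and 10.22 in undriven testes.

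*ste24b* encodes a protease that acts on prenylated proteins. It read 9.89, 10.01 and 9.76 in knockdown testes, against 11.03, 10.92 and 10.97 in *bam*-Gal4 and 10.91, 11.10 and 10.92 in undriven testes. *TTLL6A* belongs to the tubulin tyrosine ligase-like enzymes, which modify the tubulin of stable microtubules such as those of the sperm tail. It read 9.43, 9.62 and 9.58 in knockdown testes, against 10.74, 10.56 and 10.55 in *bam*-Gal4 and 10.69, 10.61 and 10.55 in undriven testes. *CSN1a* encodes a form of subunit 1 of the COP9 signalosome, a complex that regulates ubiquitin ligases. It read 10, 9.97 and 9.93 in knockdown testes, against 10.97, 11 and 11.01 in *bam*-Gal4 and 11.14, 10.98 and 10.89 in undriven testes. In all 3 genes the 3 knockdown arrays were at least 0.89 below every control array.

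Of the RNAs without a protein, *lncRNA:CR33948* had the widest spread among knockdown arrays of all 57 probe sets. It read 5.59, 6.18 and 5.06 in knockdown testes, against 7.54, 6.85 and 6.61 in *bam*-Gal4 and 6.77, 6.5 and 7.25 in undriven testes, and its gap of 0.32 was the narrowest of the 57. *lncRNA:CR41601* read 7.49, 7.17 and 7.30 in knockdown testes, against 8.33, 8.23 and 8.44 in *bam*-Gal4 and 8.75, 8.79 and 8.61 in undriven testes. Its undriven arrays all lay above the *bam*-Gal4 arrays.

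**Figure D3:**
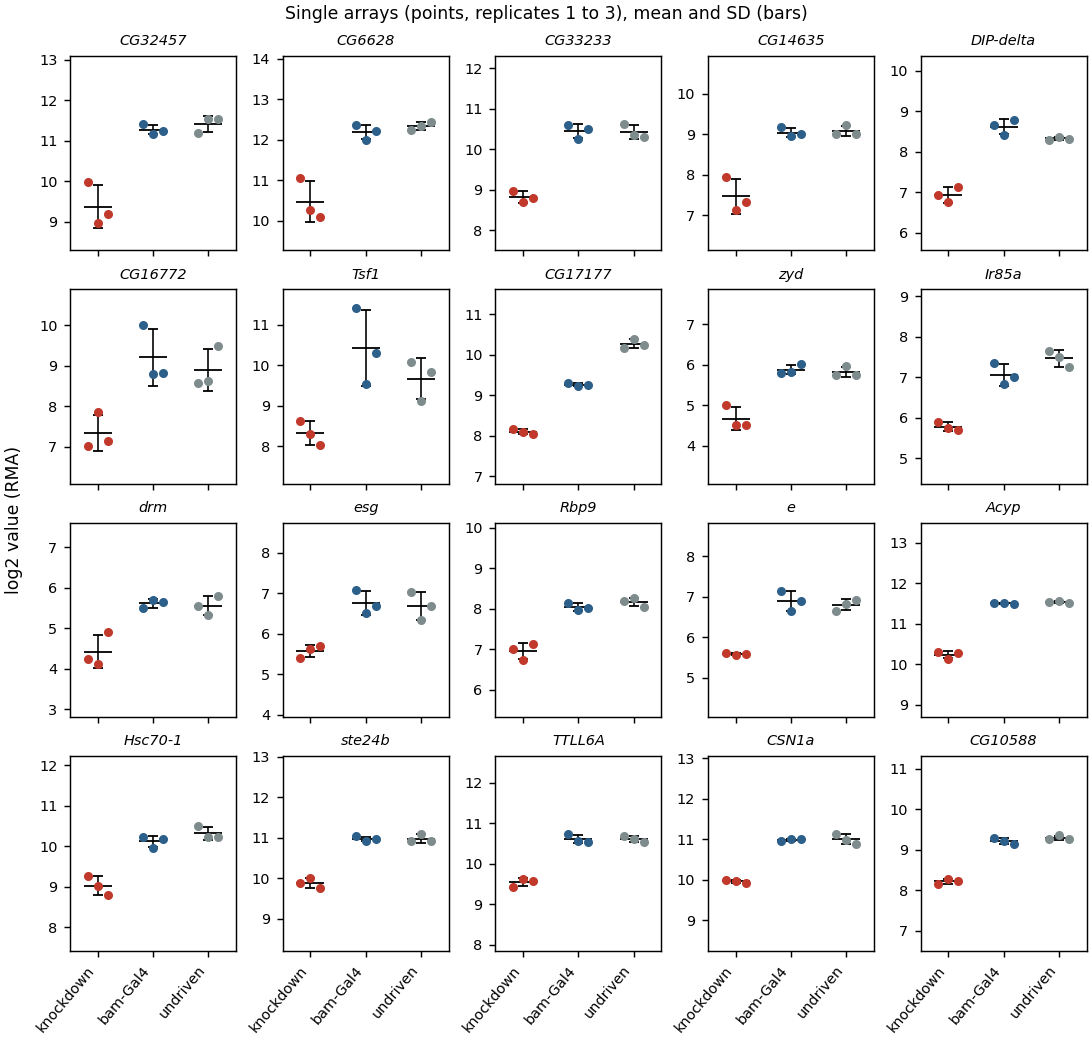
Each panel is a lowered gene, with the log2 value of each array as a point (knockdown red, *bam*-Gal4 blue, undriven grey, replicates 1 to 3 from left to right) and the mean and SD of the 3 arrays as bars. Every panel spans 4.8 log2 units, and for *Tsf1* the probe set with the larger decrease is drawn. The controls lie at about the same height in most panels and apart in *CG17177*.

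The 3 probe sets just inside the limit and those just outside it were nearly alike. Inside lay *CG32106*, with a smaller decrease of 1.01, and *CG10588* and *CG6785*, each with 1. *CG10588* read 8.14, 8.28 and 8.22 in knockdown testes, against 9.29, 9.21 and 9.14 in *bam*-Gal4 and 9.27, 9.35 and 9.26 in undriven testes. Outside lay *vig*, which encodes an RNA-binding protein, and *CG42733*, each with 0.99, and an unnamed probe set with 0.97. *vig* read 10, 9.89 and 9.98 in knockdown testes, against 11.01, 10.9 and 10.94 in *bam*-Gal4 and 10.99, 11.13 and 10.91 in undriven testes, with no overlap. A decrease between 0.8 and 1 with no overlap was found for 66 probe sets, so that the decreases run on past the limit. Another 2 probe sets were lowered by at least 1 with overlapping arrays. They belong to *Drs* (smaller decrease 1.37) and *Mtk* (1), which encode antimicrobial peptides of the immune response.

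The genes on the list were unequal in how evenly the knockdown arrays were lowered. The rule used these values, and the spread is given as a description. The median SD of the 3 knockdown arrays was 0.155 for the 57 probe sets and 0.1 for all probe sets. An SD over 0.3 was found in 14 of the 57 (24.6%) and in 893 of all probe sets (4.71%), and an SD under 0.1 in 17 of the 57 and in 9428 of all (49.7%). At the even end were *CG31867*, with 9.99, 9.99 and 9.97 in knockdown testes, and *CG10512*, with 9.71, 9.70 and 9.73. The control arrays of *CG31867* lay between 11.10 and 11.12 in *bam*-Gal4 and between 11.09 and 11.24 in undriven testes. At the uneven end were *lncRNA:CR33948*, *CG32457*, *CG4267* and *CG6628*.

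Knockdown replicate 1 was the single highest of the 3 knockdown arrays in 30 of the 57 probe sets (52.6%), against 34.3% of all probe sets, and replicates 2 and 3 in 15 and 11. In *bam*-Gal4, replicate 1 was the single highest array in 42 of the 57 (73.7%), against 52.0% of all probe sets. In the undriven control the highest array was replicate 1 in 22, replicate 2 in 23 and replicate 3 in 12. The level of *tbrd-2* was 8.06 in knockdown replicate 1, 7.82 in replicate 2 and 8.05 in replicate 3, and its part in these counts was not tested.

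The rule also bears on the signal of the probe sets it takes, since a probe set near the floor of the array in the controls can hardly lie 1 lower in knockdown testes. As a description, the mean of the 6 control arrays was under 6 for 4 of the 57 probe sets, against 9676 of all (51.1%). In knockdown testes the mean was under 6 for 17 of the 57.

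The rule set no condition on the difference between the controls. It did use the values of both, so that the choice of the probe sets can bear on this difference. In limma, 1 of the 57 probe sets was called between *bam*-Gal4 and undriven testes (1.75%), where 0.38% of all probe sets were called. By the adjusted p alone it was 2 of 57 (3.51%), against 2.08% of all. By an unadjusted p under 0.05 it was 11 of 57 (19.3%), against 2117 of all (11.2%). The called gene was *CG17177*. It read 9.31, 9.22 and 9.26 in *bam*-Gal4 testes, against 10.17, 10.39 and 10.25 in undriven testes, which gave −1.01 on the log2 scale (standard error 0.07, limma, adjusted p = 0.000126). Knockdown testes had 8.16, 8.09 and 8.05. The 3 genotypes thus did not overlap, and the decrease in knockdown testes was 2.24-fold against *bam*-Gal4 and 4.50-fold against the undriven control. The fold limit was passed narrowly, and the call was lost in some settings, always with a log2-fold change of −0.95 or lower and an adjusted p of at most 0.00967.

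*CG12017* was the other gene to pass the adjusted p. It read 7.87, 7.61 and 7.63 in *bam*-Gal4 testes, against 8.07, 8.48 and 8.28 in undriven testes, which gave −0.57 on the log2 scale (standard error 0.11, limma, adjusted p = 0.029). Its knockdown values were 6.63, 6.71 and 6.64. Knockdown males carry the *bam*-Gal4 insertions as *bam*-Gal4 males do, and both genes were lower in these *bam*-Gal4 males than in undriven males. The insertions and other differences between these strains cannot be told apart.

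Over all 57 probe sets the median log2-fold change between the controls was −0.04 (range −1.01 to 0.75), and 33 of the 57 were lower in *bam*-Gal4, against 54.5% of all probe sets. The difference was at most 0.2 in size for 39 of the 57 (68.4%), against 85.3% of all. The top of the range was *Tsf1*, at 0.75 (standard error 0.42) and 0.45, with adjusted p = 0.586 and 0.685 in limma.

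**Figure D4:**
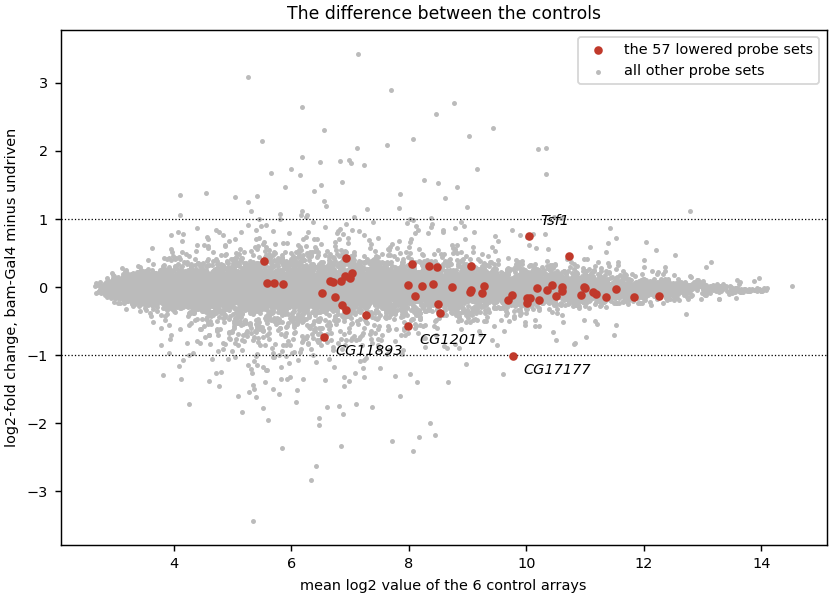
Each point is a probe set, with the mean log2 value of the 6 control arrays on the x axis and the log2-fold change of *bam*-Gal4 minus undriven on the y axis. Of the 57 lowered probe sets (red), *CG17177* alone lies past a dotted line at 1 or −1, while *CG11893*, *CG12017* and *Tsf1* lie nearest to it.

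A second probe set that did not meet the rule was found for 7 of the 49 genes, 8 probe sets in all. All 8 were lower in knockdown testes than in both controls on average, by different amounts. The second probe set of *TTLL6A* read 10.82, 10.88 and 10.97 in knockdown testes, against 12, 11.78 and 11.67 in *bam*-Gal4 and 11.74, 11.87 and 11.76 in undriven testes, just short of the limit. The second one of *CG33233* changed by −0.67 against *bam*-Gal4 and by −0.61 against undriven. Those of *Hsc70-1* had −0.45 and −0.31 in one, and −0.40 and −0.60 in the other. In these 4 the arrays did not overlap. The second probe sets of *CG4267* (−0.45 and −0.14) and *Rbp9* (−0.42 and −0.20) overlapped. Those of *DIP-delta* (−0.11 and −0.03) and *Tsf1* (−0.08 and −0.05) also overlapped, with knockdown means of 4.04 and 3.37 and control means of at most 4.15 and 3.45, in the low part of the array's range. *CG9449*, whose probe sets both met the rule, had 7.21, 7.10 and 6.98 in knockdown testes, against 8.72, 8.17 and 8.41 in *bam*-Gal4 and 8.80, 8.18 and 8.20 in undriven testes, and in the other probe set 7.99, 8.07 and 8 in knockdown testes, against 9.55, 9.06 and 9.26 in *bam*-Gal4 and 9.51, 9.17 and 9.12 in undriven testes. The 2 probe sets rank the 3 *bam*-Gal4 arrays in the same order.

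The relatives of the named genes, by family, pathway or complex, were listed after the lowered genes were known and were not tested as a group. Of 51 relatives of 12 named genes, 49 were measured, and 0 of them were lower or higher by 1 against both controls. The shares of all probe sets called by limma, which also asks for the adjusted p, were 0.354% and 0.454%, the lowered probe sets included. With shares this small, nothing is read from 0 of 49. Some relatives also read low in *bam*-Gal4 and undriven testes, such as *DIP-kappa* (means 2.85 and 2.82) and *ple* (2.91 and 3.02), and could hardly lie 1 lower. The change was under 0.5 in size against both controls for 45 of the 49 (91.8%), against 85.0% of the 11933 genes outside the list. *CSN1a* stood at −1.03 against *bam*-Gal4 and −1.04 against undriven, while *CSN1b*, the other form of its subunit, stood at 0.33 and 0.30, *CSN4* at 0.34 and 0.41, and *CSN5*, the catalytic subunit, at 0.35 and 0.43. None of the other 8 signalosome genes had a log2-fold change below −0.01. *ste24b* lies between *ste24c* and *ste24a* on chromosome 2R, and these had −0.06 and −0.22, and 0.03 and 0.00. The 3 genes are tandem relatives, and the probe sets gave different values for them.

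Of 10 measured relatives of *TTLL6A*, the closest to its −1.07 was *TTLL4B* at −0.39 and −0.51, while *TTLL6B* stood at −0.08 and −0.14. Among the Hsp70 cognates, the change was most negative for *Hsc70-5*, the mitochondrial form, at −0.35 and −0.39. *Acyp2*, the other acylphosphatase, had −0.28 and −0.29. *Tsf3*, a transferrin, was one of the relatives with a larger change, at −0.75 and −0.57, and *Tsf2* had −0.15 and −0.09. *t* (*tan*), which encodes the enzyme that reverses the reaction of ebony, stood at 0.73 and 0.67, opposite in sign to *e*. *Nckx30C*, another exchanger of the kind of *zyd*, stood at 0.30 and 0.48. The ELAV-family genes *elav* and *fne* stood at −0.01 and 0.08, and at 0.22 and 0.15, with log2 values under 5. Beside *Rbp9* and *DIP-delta*, the mean of 5 neuron markers lay between 5.39 and 5.42 in knockdown, 5.42 and 5.59 in *bam*-Gal4 and 5.39 and 5.57 in undriven testes, and none of the 5 was called by limma. Of the 5, 2 had a mean log2 value under 5. At an unadjusted p under 0.05, 1 was lower (*brp*, at −1.03 and −0.92) and 1 higher (*nSyb*). *brp* also passed the adjusted p against both controls (0.000571 and 0.00104 in limma), where 5.88% of all probe sets were lower. It missed a call only by the fold limit against undriven. The part of neurons in these values was not tested.

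**Figure D5:**
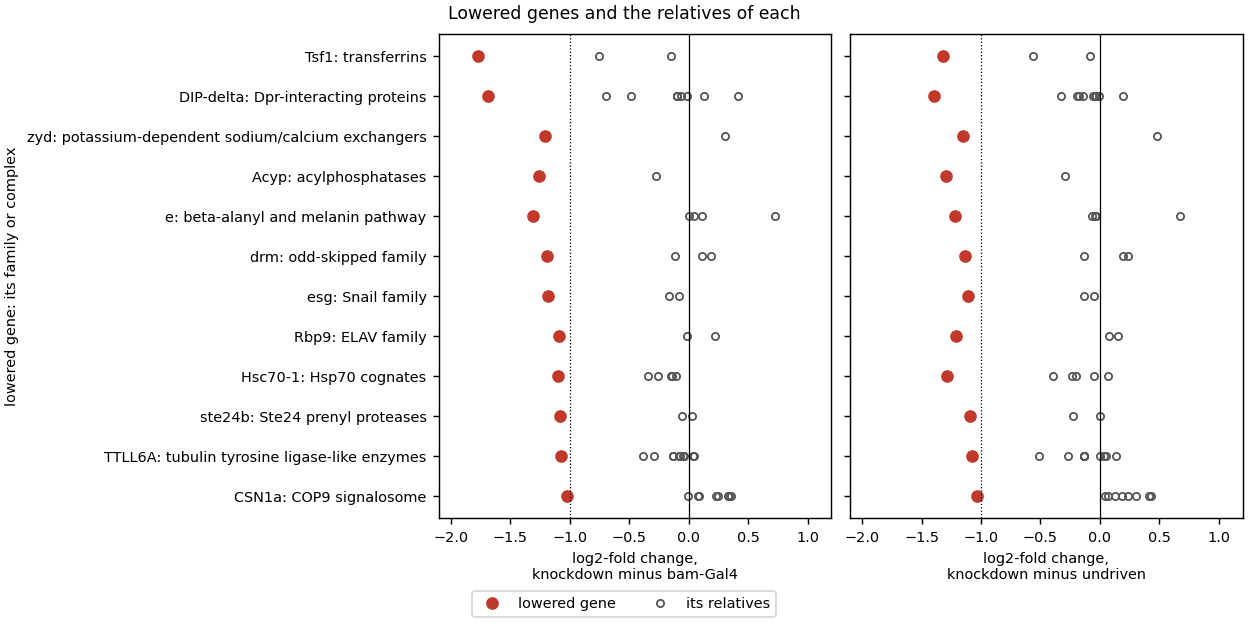
Rows are 12 lowered genes with a name (red) and their relatives by family, pathway or complex (open circles). The x axes give the log2-fold change of knockdown minus *bam*-Gal4 (left) and of knockdown minus undriven (right), with a dotted line at −1. All relatives lie above −1 in both panels, and some of them had low values in the controls too.

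Lists of genes that act with *tbrd-2* or in spermatid differentiation held none of the 49 genes. Against both controls, limma called 2 genes in these 7 lists, both of them higher and both tTAFs, among 5. *mia* stood at 1.89 and 1.48 (adjusted p = 2.15e-05 and 5.61e-05 in limma) and *Taf12L* at 1.13 and 1.05 (adjusted p = 3.21e-05 and 4.13e-05 in limma). None was called among 9 tMAC genes (*mip40* at 0.31 and 0.29, *vis* at 0.10 and 0.24), 2 other tBRD genes (*tbrd-1* at 0.18 and 0.39, *tbrd-3* at −0.12 and −0.07), 7 genes of sperm chromatin proteins, 12 of the sperm tail, and 4 sperm leucyl aminopeptidases. The median log2-fold change was −0.08 and −0.05 for sperm chromatin proteins, −0.01 and −0.05 for the sperm tail and 0.04 and 0.02 for the leucyl aminopeptidases. At an unadjusted p under 0.05 against both controls, 1 gene each of sperm chromatin (*Prtl99C*) and of the sperm tail (*Tektin-C*) was lower. Another tTAF, *sa* (0.61 and 0.97), 3 tMAC genes and *tbrd-1* were higher, and 0 of the leucyl aminopeptidases were either. Of all probe sets, 10.2% were lower and 11.6% higher by this measure. Of these genes, *Tektin-C* (0.00784 and 0.00896 in limma) and *sa* (0.00267 and 0.000243) also passed the adjusted p against both controls, short of the fold limit.

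The list with the lowest medians was that of the comet and cup genes, which are transcribed in spermatids after meiosis. None of the 12 measured reached the fold limit, and their medians were −0.28 against *bam*-Gal4 and −0.34 against undriven, where those of all probe sets were −0.02 and −0.03. By the adjusted p alone, 6 of the 12 were lower against both controls, where 5.88% of all probe sets were. These were *hale*, *schuy*, *sunz*, *boly*, *d-cup* and *t-cup*, named after their values were seen. *boly* had −0.44 and −0.53 (adjusted p = 0.00231 and 0.000856 in limma), and *t-cup* came nearest to the fold limit with −0.96 and −0.78. *c-cup* had −0.07 and −0.12. The 49 genes on the list of 2-fold decreases hold no comet or cup gene.

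On the chromosomes the 49 genes were spread over all large arms. Chromosome 2L held 16 of them (32.7%, against 18.5% of 11894 genes on the array), 3L held 14 (28.6%, against 19.7%), 3R held 9 (18.4%, against 25%), the X held 6 (12.2%, against 15.7%) and 2R held 4 (8.16%, against 20.4%). Chromosome 3, which carries the hairpin and, in the controls, the *Sb* mark, held 23 of the 49 (46.9%), against 44.7% of all genes. These are shares with no test, and the part of the *Sb* chromosome in the decreases was not tested.

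No 2 of the 49 genes were next to each other, and the closest, *CG4267* and *CG16995*, had 18 annotated genes between them. The 11 genes left out, and the lowered probe sets with several symbols or none, were not part of this comparison. Of the 98 nearest measured neighbours on either side, limma called 0 lower and 1 higher against both controls. Of the 11933 genes outside the list, 11 were called lower and 66 higher. The shares of all probe sets, the lowered ones included, were 0.354% and 0.454%. By the unadjusted p alone (under 0.05) 17 of the 98 were lower and 15 higher (17.3% and 15.3%), against 10.2% and 11.6% of all probe sets. The called one was *klg*, beside *CG4704*, at 1.25 and 1.19. The medians of the neighbours were −0.02 and −0.01, against 0.01 and 0.01 for all other genes, and 46 of the 98 (46.9%) were below 0 against both controls, against 38.5% of all other genes. These neighbours, like those that follow, were looked up after the list was known.

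The knockdown arrays lay apart from all control arrays, with a change of at least 0.6 against both controls, in 5 of the 98 neighbours below the controls and 5 above them. The share of all genes that meet both conditions was not counted, and nothing is read from these counts. Below lay *lncRNA:CR40053* near *CG40470* (−0.95 and −1.80), *CG10969* next to *CG32106* (−0.97 and −0.90), *CG17364* next to *Hsc70-1* (−0.78 and −0.76), *CG9451* next to *CG9449* (−0.69 and −0.69) and *CG5953* near *CG31816* (−0.94 and −0.65). Above lay, with *klg*, *CG18367* near *TTLL6A* (0.97 and 0.88), *Trf2* next to *CG32712* (0.88 and 0.74), *Ance-3* next to *Acyp* (0.83 and 0.77) and *CG13738* on the other side of *Hsc70-1* (0.76 and 0.70). Of these 10, limma called *klg* alone. *Sems* and *CG11037*, on either side of *CG10588*, the second overlapping it in the annotation, had positive changes of 0.88 and 1.17, and of 1.01 and 1.12, where *CG10588* had −1 and −1.08. The arrays of both neighbours overlapped between genotypes. *CG11037* read 8.84, 8.38 and 10.53 in knockdown testes, against 6.10, 10.50 and 8.11 in *bam*-Gal4 and 8.68, 7.76 and 7.94 in undriven testes. The highest of these values in knockdown and in *bam*-Gal4 testes were on the arrays with the highest mean of the duct and accessory gland genes, 11.62 and 11.65, and the part of gland RNA in them was not tested.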

How the data were processed

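Whole testes of 3 genotypes were measured on 9 arrays. The authors deposited log2 values, read with the affy package and made with RMA. This method subtracts background, brings the arrays to 1 distribution by quantiles and summarizes each probe set as 1 value, here with 2 decimals. No version was given in the sources used here. Log2-fold changes were differences of genotype means. The limma package (3.58.1, R 4.3.3) fitted a mean for each genotype to all 9 arrays with lmFit and eBayes, with no covariate and no filter, which left 6 residual degrees of freedom. The Benjamini-Hochberg adjustment ran over all 18952 probe sets of a comparison. A call needed a difference of at least 2-fold, or 1 on the log2 scale, and an adjusted p under 0.05. The fit was tested on simulated data. The number of arrays limits the precision, and p-values measure the spread between pools of animals.

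Symbols came from the platform table (13647 probe sets with 1 symbol, 402 with several, 4903 with none), brought up to date through the RefSeq gene table of Release 6 plus ISO1 MT, in which 13544 were found, and which also gave chromosomes and gene order. No coordinates or sequences are given. Named were the 12 genes with the largest smaller decrease, every gene with a name, genes called between the controls, those at the limit, those with a second probe set and, in each list, called genes or up to 2 with the highest mean. For other genes with several probe sets the brightest was used. The lowered genes, the gene lists and the tests were chosen with earlier results of these data known. Alternatives were a replicate block, fits of 6 arrays, renewed normalization, filters on signal, other variance models, array weights, other limits, genes in place of probe sets, and each array left out. Plots were drawn with matplotlib 3.10.9.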

Additional observations from a re-analysis of the deposited data

How the results depend on the processing

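The number of probe sets meeting the rule, 57, became 123 with a decrease of at least 0.8 and 25 with at least 1.2. It lay between 48 and 63 when each array was left out in turn, was 58 after renewed quantile normalization and 62 after centring on the median, and between 48 and 57 of the probe sets were the same in those runs. The count called between the controls, 1, became 0 after centring on the median, after renewed quantile normalization and without knockdown replicate 3, *bam*-Gal4 replicate 2 and undriven replicate 3, each the highest of its genotype in gland or gut transcripts, 2 with no fold limit, and 0 to 1 when each array was left out. It became 0 without *bam*-Gal4 replicate 2 or undriven replicate 2, where *CG17177* stood at −0.99 and −0.95. The fit without these 3 arrays was chosen after seeing the data. The count called lower against both controls, 56, lay between 48 and 57 in all settings, and the 2 called list genes stayed at 2. Of 663 values of the named lowered genes over 13 settings, 636 kept a decrease of at least 1, 27 fell short of it and 0 changed sign. The smallest was 0.75, for *lncRNA:CR33948* without an array. The rule set every knockdown value of these genes below every control value, so that leaving out arrays could not change a sign. The replicate block leaves the values as they were. These counts are therefore a description of the limit and no test of the decreases.

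With the replicate number as a block the counts were 56, 1 and 2 as without it. The numbers do not pair the arrays. The deviations of arrays with the same number correlated between −0.58 and 0.33, and those of arrays with different numbers between −0.52 and 0.55.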
